A study of Mus musculus with 12 samples.

Results

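Oxidative phosphorylation subunit genes encode the nuclear parts of the 5 enzyme complexes of the mitochondrial inner membrane. They were taken by symbol from the array's annotation (Ndufa, Ndufb, Ndufc, Ndufs and Ndufv genes, Sdha to Sdhd, Uqcr genes, the numbered Cox subunits and Atp5 genes), and 79 symbols matched. Atp5sl, now called Dmac2 and an assembly factor, and Cox4nb, now called Emc8 and no subunit, were dropped. This left 77 of the 14201 genes with a value: 34 of complex I, 4 of complex II, 7 of complex III, 17 of complex IV and 15 of complex V. Ndufa4 was counted with complex IV, where the protein is now placed, and Atp5s, now called Dmac2l, was kept with complex V as coupling factor B.

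The genes were followed in granulocyte-monocyte precursors (GMPs), the bone marrow progenitors of granulocytes and monocytes, which were sorted by flow cytometry from C57BL/6 mice and profiled on 12 one-colour Affymetrix Mouse Gene 1.0 ST arrays. The zinc-finger protein Gfi1 represses transcription in these cells, and the study asked which genes differ with a variant of the human gene, in relation to acute myeloid leukaemia. There were 3 arrays of each of 4 genotypes. These were the wild type (WT), mice without Gfi1 (KO, the knock-out), mice with a knock-in of the common human Gfi1 (wtKI) and mice with a knock-in of the human Gfi1 variant (SNP). All 4 groups share the strain, the sort and the amplification of very small amounts of RNA with a NuGEN kit. The labels give no age and name no separate mice behind the arrays of a genotype. The p-values therefore describe a spread among these 12 samples that may be technical in part or, within KO and SNP, in full. By Y-linked genes, given below, WT and wtKI each held arrays of both sexes, so more than 1 mouse lay behind each of these groups. Nor do the labels say how many mice gave the cells of 1 array or whether a mouse carried 1 or 2 altered alleles.

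As background, complexes I and II pass electrons from NADH and succinate to coenzyme Q, complex III passes them to cytochrome c, and complex IV passes them to oxygen. Complexes I, III and IV pump protons as they do so, and complex V, the ATP synthase, uses the returning protons to make ATP. Immature myeloid precursors are rich in mitochondria, while mature neutrophils hold few of them and rely largely on glycolysis.

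The values are log2 signals, and a difference of 1 on this scale is a factor of 2 in signal. Differences were taken between arrays, for 1 gene at a time. The gene Gfi1 itself, by the median of its 5 probe sets, lay at 5.59 to 6.29 in WT, 6.43 to 6.74 in KO, 5.93 to 6.28 in wtKI and 6.54 to 6.65 in SNP. It was not lower on the KO arrays, and the sources used here do not say which probe sets lie in the deleted part, so this gene does not check the labels. The first KO array (KO 1) and the first SNP array (SNP 1) stood apart: over all probe sets their median correlation with the other arrays was 0.69 and 0.62, against 0.83 to 0.88 for the other 10. On SNP 1 the mean of 9 of 10 GMP markers with a value was 8.45, against 9.46 to 9.96 on the 11 others. The mean of 10 late neutrophil markers was 11.05 there, against 5.23 to 7.52, and all 10 were above both other SNP arrays. For 7 erythroid markers the mean was 9.89 on SNP 1 and 7.78 on KO 1, against 5.57 to 6.73 elsewhere, and all 7 were above both other arrays of the same genotype on each. The means of 5 B-lineage and 5 T and NK cell markers were also highest on SNP 1, at 8.77 and 8.38, against 5.22 to 6.41 and 5.06 to 6.07. For 3 macrophage markers SNP 1 gave 8.06, against 6.16 to 7.05, and 5 mast cell markers ran from 8.30 to 8.57 on the KO arrays and from 6.55 to 8.11 on the other 9. No marker was under the lowest 5% of genes on all 12 arrays. By Y-linked genes, WT 3, wtKI 2 and wtKI 3 were female and the other 9 arrays male. The counts and medians of the comparisons are therefore given on all 12 arrays and again on the 10 that leave out KO 1 and SNP 1, and single genes on 10 arrays where the value moves most.

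No member was under the lowest 5% of genes on any array. The members rest on 372 probe sets, with a median of 4 per gene, and 8 genes rest on 1 probe set. Their signals also varied less from array to array than those of all genes. The median range over the 12 arrays was 0.98, against 1.31 for all genes, and 0.66 against 0.98 on the 10 arrays. The members were bright: their median percentile rank among all genes ran from 91.3 on SNP 1 to 95.5 on SNP 3. The part of the signal level in the narrower ranges was not tested.

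No member passed the threshold in any of the 6 comparisons of 2 genotypes (limma, Benjamini-Hochberg adjusted p under 0.05 over 14201 genes). Few genes of any kind passed. In SNP minus WT and in KO minus wtKI the share of all genes called was 0%, in KO minus WT, SNP minus wtKI and wtKI minus WT it was 0.00704% (1 gene each), and in SNP minus KO it was 0.0141% (2 genes, and 0 with the replicate number as a block). In limma's moderated F test for any difference among the 4 genotypes, no member passed and 0.00704% of all genes did. The F test gave 8 of 77 members at an unadjusted p under 0.05 (10.4%), against 8.86% of all genes. Its smallest adjusted p among members was 0.156, for Ndufs5, and on 10 arrays 0.155, also for Ndufs5. limma was the only tool run. The differences below are therefore given as values with their standard errors, none of which passed.

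The SNP arrays held the lower values more often than the other genotypes. The SNP mean was the lowest of the 4 genotype means in 49 of 77 members (63.6%), against 34.0% of all genes, and the WT mean was the highest in 38 members (49.4%), against 26.9%. Without KO 1 and SNP 1 these became 37 members (48.1%, against 31.9%) and 28 members (36.4%, against 23.9%). In 4 members all 3 SNP arrays lay below all 9 other arrays, namely Ndufs5, Uqcrc1, Atp5d and Atp5o (5.19%, against 1.44% of all genes). No member had all 3 above, against 1.52% of all genes.

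The lower values were most marked on 1 array. Taking each member's difference from its mean over the WT arrays, the median over the 77 was -0.56 on SNP 1, -0.15 on SNP 2 and -0.06 on SNP 3, with 65, 57 and 45 members below the WT mean. On KO 1 it was -0.16, with 50 members below, and on KO 2 and KO 3 it was 0.01 and -0.01. The 3 wtKI arrays gave -0.06, -0.01 and -0.13. SNP 1 held the lowest of the 12 values in 40 members and KO 1 in 13. SNP 1 was below both other SNP arrays in 55 members (71.4%), against 43.4% of all genes, and KO 1 below both other KO arrays in 49 (63.6%), against 41.4%. On SNP 1 the means of the late neutrophil, erythroid, B-lineage and T and NK cell markers were the highest of the 12 arrays, and KO 1 came next for the erythroid (7.78) and B-lineage (6.41) markers. The part of other cells in the lower signals was not tested, and in bulk RNA fewer cells of a type and less RNA per cell cannot be told apart.

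**Figure D1:**
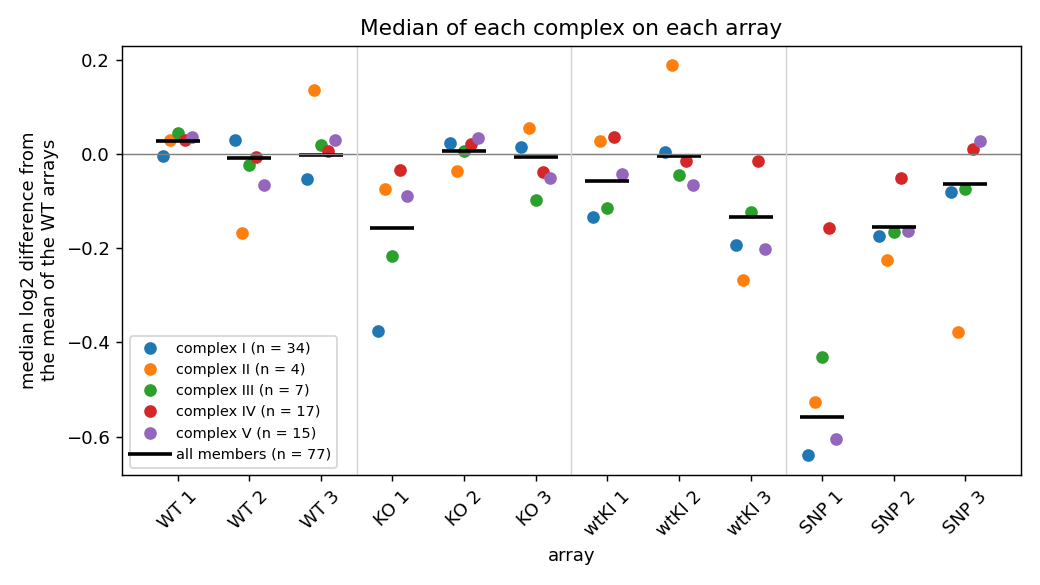
Each point is the median, over the genes of 1 complex, of the log2 difference from the mean of the 3 WT arrays, for each of the 12 arrays on the x axis; black bars are medians over all 77 genes. SNP 1 stands lowest at -0.56, SNP 2 and KO 1 follow at -0.15 and -0.16, and complex IV (red) is the complex nearest to 0 on SNP 1, SNP 2 and KO 1.

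Ndufs5, an accessory subunit of complex I in the intermembrane space, had the largest difference of all members between SNP and WT. Its signal was 9.25, 8.61 and 8.84 in WT, 7.64, 7.80 and 8.21 in KO, 8.61, 8.59 and 7.91 in wtKI and 7.19, 6.93 and 7.17 in SNP. The SNP arrays lay below all others without overlap, the KO arrays lay below the WT arrays, and the wtKI arrays overlapped with both WT and KO. SNP minus WT was -1.80 ± 0.26 (SE; limma adjusted p = 0.0654, the smallest among members in that comparison), SNP minus wtKI -1.27 ± 0.26 (adjusted p = 0.415) and KO minus WT -1.02 ± 0.26 (adjusted p = 0.518). The smallest adjusted p over all genes in SNP minus WT was also 0.0654. The adjustment can give 1 value to several genes, so this does not rank Ndufs5 first. The 3 comparisons share arrays and are not independent of each other. Without KO 1 and SNP 1 the values were -1.85, -1.32 and -0.89. The adjusted p of SNP minus WT ran from 0.0376 to 0.345 over the alternative settings. It was below 0.05 with array weights and with a repeated quantile normalization (0.0475). This gene rests on 1 probe set, so no second probe set could be compared.

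Uqcrc1, a core subunit of complex III, read 10.18, 9.67 and 10.13 in WT, 9.78, 10.002 and 10.14 in KO, 9.72, 9.95 and 9.94 in wtKI and 8.56, 9.32 and 9.17 in SNP. The highest SNP value, 9.32, was below the lowest of the other 9, and the lowest of all was on SNP 1. The difference SNP minus WT was -0.98 ± 0.24 (SE; limma adjusted p = 0.246), SNP minus KO -0.96 ± 0.24 (0.268) and SNP minus wtKI -0.85 ± 0.24 (0.555). On 10 arrays these were -0.75, -0.83 and -0.63. Of its 11 probe sets, 10 were lower in SNP than in WT.

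Atp5d encodes the delta subunit of the F1 head of complex V and read 8.85, 8.41 and 8.41 in WT, 8.34, 8.42 and 8.67 in KO, 7.99, 8.18 and 8.25 in wtKI and 7.73, 7.75 and 7.38 in SNP. Here SNP 1 was not the lowest SNP array, and the wtKI arrays lay between the SNP arrays and the rest. Against WT, SNP differed by -0.94 ± 0.20 (SE; limma adjusted p = 0.224) and against KO by -0.86 ± 0.20 (0.258), and on 10 arrays both were larger in size, at -0.99 and -0.98. All 5 probe sets were lower in SNP than in WT. With the probe set of the highest mean in place of the median of the 5, the differences were -0.40 and -0.29.

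Atp5o encodes the stalk subunit that joins the F1 head to the membrane part, also known as OSCP. It read 9.56, 9.47 and 9.79 in WT, 9.22, 9.41 and 9.43 in KO, 9.15, 9.32 and 9.29 in wtKI and 8.22, 9.02 and 9.14 in SNP. SNP 1 was far below SNP 2 and SNP 3, which were themselves below the lowest wtKI array. The SNP mean differed from the WT mean by -0.81 ± 0.24 (SE; limma adjusted p = 0.272), and -0.52 without KO 1 and SNP 1. All 5 probe sets were lower.

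Atp5e, the epsilon subunit of the same head, went the other way from Atp5d. It read 9.79, 10.20 and 9.84 in WT, 10.12, 9.97 and 9.88 in KO, 10.41, 10.04 and 10.23 in wtKI and 10.30, 10.22 and 10.50 in SNP, so that every SNP array was above every WT and KO array, though only just above WT 2, while wtKI overlapped with each. In SNP it was 0.40 ± 0.19 above WT (SE; limma adjusted p = 0.353), and 0.42 on 10 arrays. All 3 probe sets were higher in SNP.

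The promoter windows of Ndufs5, Uqcrc1, Atp5d and Atp5e are shown because all 3 SNP arrays were below the other 9 in the first 3 of these genes and above all WT and KO arrays in Atp5e. Each is 300 bases of RefSeq sequence (build GRCm38.p6), a window around the start of the gene that lies mostly before it, written 5′ to 3′ on the gene's strand. Ndufs5 is chr4:123718137-123718436 on the minus strand, Uqcrc1 is chr9:108936398-108936697 on the plus strand, Atp5d is chr10:80142025-80142324 on the plus strand (the first of 2 windows) and Atp5e is chr2:174464052-174464351 on the minus strand. Capitals mark letters of the motifs searched, in either orientation.
Ndufs5: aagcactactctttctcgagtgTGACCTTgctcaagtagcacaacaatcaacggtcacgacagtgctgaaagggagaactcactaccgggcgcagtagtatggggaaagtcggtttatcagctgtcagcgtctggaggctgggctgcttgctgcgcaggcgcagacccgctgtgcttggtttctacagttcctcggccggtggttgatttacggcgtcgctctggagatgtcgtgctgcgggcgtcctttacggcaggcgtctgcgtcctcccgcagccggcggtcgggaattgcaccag
Uqcrc1: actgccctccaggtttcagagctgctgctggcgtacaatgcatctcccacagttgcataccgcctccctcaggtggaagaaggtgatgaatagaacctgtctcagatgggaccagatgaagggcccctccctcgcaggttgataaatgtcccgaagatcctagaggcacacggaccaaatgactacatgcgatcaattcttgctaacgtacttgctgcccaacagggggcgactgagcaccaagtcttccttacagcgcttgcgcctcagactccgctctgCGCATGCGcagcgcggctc
Atp5d: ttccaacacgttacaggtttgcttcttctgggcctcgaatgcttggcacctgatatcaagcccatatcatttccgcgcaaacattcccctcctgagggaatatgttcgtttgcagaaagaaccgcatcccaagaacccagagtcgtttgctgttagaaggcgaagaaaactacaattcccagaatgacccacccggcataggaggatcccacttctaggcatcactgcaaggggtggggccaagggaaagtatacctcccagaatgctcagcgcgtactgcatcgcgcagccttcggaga
Atp5e: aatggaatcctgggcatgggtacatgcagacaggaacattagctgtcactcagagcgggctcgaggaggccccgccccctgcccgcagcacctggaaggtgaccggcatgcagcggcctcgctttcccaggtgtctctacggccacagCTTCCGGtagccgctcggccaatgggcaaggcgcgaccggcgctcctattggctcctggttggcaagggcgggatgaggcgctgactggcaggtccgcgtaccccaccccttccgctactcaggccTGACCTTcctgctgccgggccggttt
Ndufs5 held the ERRA letters, Uqcrc1 the NRF1 letters (read on both strands at 1 place), Atp5e the ETS and ERRA letters, and neither window of Atp5d held any. Atp5o, in which all 3 SNP arrays were also below the other 9, is not shown, and its window held none of the motifs.

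The motifs were letters of factors described as regulators of mitochondrial genes, searched on both strands of the windows of the 64 members for which a window was at hand. They were GCATGCG for NRF1, CCGGAAG for ETS factors such as GABPA, AAGATGG for YY1, TGACGTC for the cyclic AMP response element (CRE) and AAGGTCA for ERRA. The NRF1 letters stood in 10 of 64 members (15.6%), against 6.60% of the 9893 measured genes with a window and 3.58% of all 32851 windows. For ETS the counts were 15 members (23.4%), against 17.0% and 8.86%. YY1 letters stood in 10 members (15.6%, against 7.94% and 6.34%). The CRE letters stood in 6 (9.38%, against 5.57% and 3.21%), and the ERRA letters in 8 (12.5%, against 4.35% and 4.72%). A match is a run of letters, not a bound site. The 5 motifs differ in their letters, and a run that holds the NRF1 letters on both strands was counted once per gene.

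**Figure D2:**
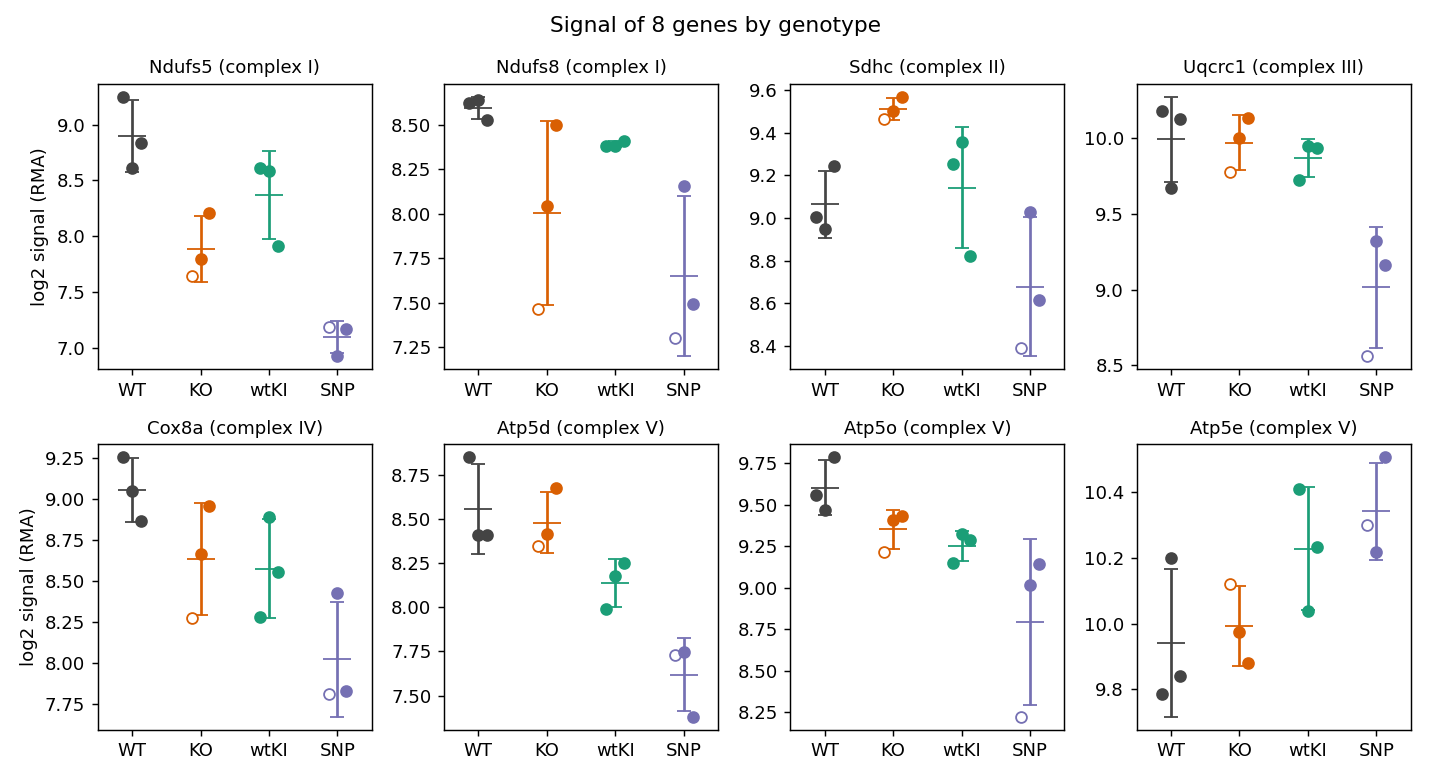
Log2 signal of 8 genes on each array (y axes differ in range and do not start at 0), by genotype; horizontal bars are means and vertical bars the SD of 3 arrays, and open circles are KO 1 and SNP 1. In Ndufs5, Uqcrc1, Atp5d and Atp5o all 3 SNP arrays are below the other 9, and in Atp5e they are above all WT and KO arrays.

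SNP minus WT had the largest median difference over the members of the 6 comparisons. Of 77 members 63 were lower and 14 higher in SNP, with a median difference of -0.25, while the median of all genes was -0.01. At an unadjusted p under 0.05 there were 16 lower and 1 higher (limma), together 17 of 77, against 14.7% of all genes. The groups did not overlap in 22 members that were lower (28.6%), against 11.9% of all genes, and in 2 that were higher (2.60%), against 11.6%. Without KO 1 and SNP 1 the median was -0.11, with 53 members lower, and 22 members were lower without overlap, against 16.7% of all genes for 2 against 3 arrays. Of the 372 probe sets behind the members, 301 were lower (80.9%), against 57.8% of all probe sets, and on 10 arrays 272 (73.1%, against 54.6%). This was not particular to the variant: in wtKI minus WT 261 were lower (70.2%, against 52.5%). In KO minus WT 246 were lower (66.1%, against 55.5%), but 166 on 10 arrays (44.6%, against 49.2%). Probe sets on the same arrays are not independent of each other. Leaving out SNP 1 alone moved the median of SNP minus WT to -0.11, and every other single array left it between -0.35 and -0.24. With sex as a term it was -0.26.

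**Figure D3:**
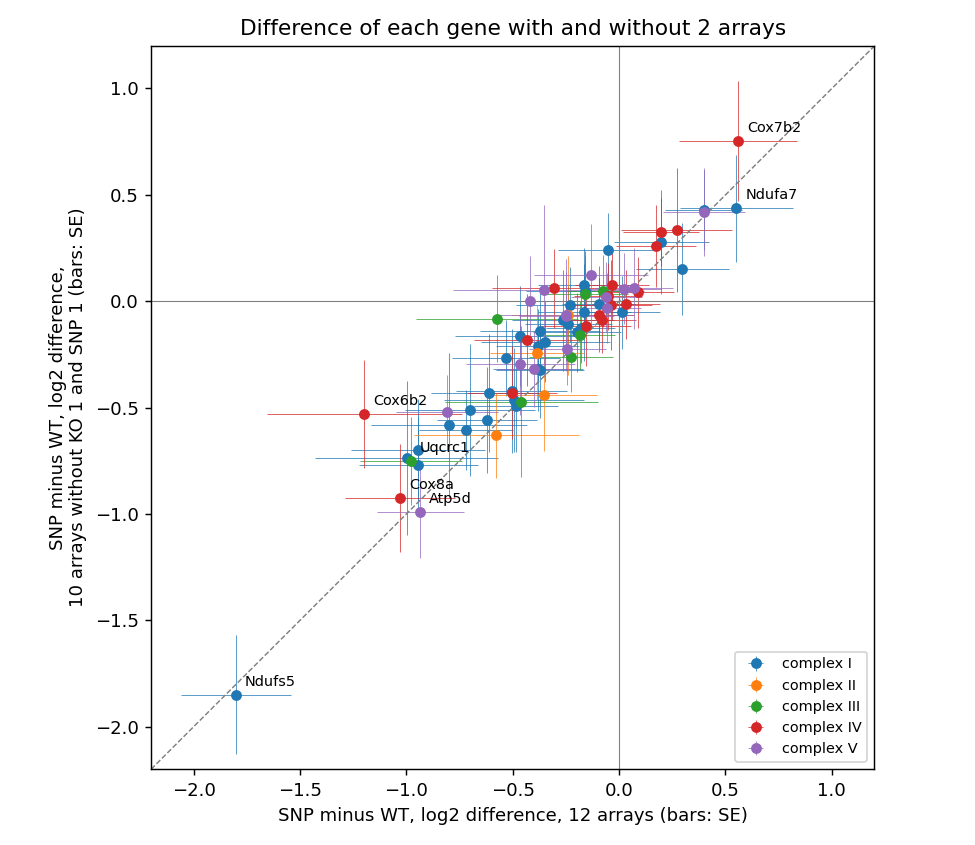
Each point is 1 gene, with its log2 difference SNP minus WT on 12 arrays (x axis) and with KO 1 and SNP 1 left out, on 10 arrays (y axis); bars are standard errors and the dashed line marks equal values. Ndufs5 (-1.80 and -1.85) and Atp5d (-0.94 and -0.99) lie on or below the line, and Cox6b2 (-1.20 and -0.53) lies well above it.

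Complexes I and II had the largest median differences between SNP and WT, both -0.37 (-0.18 and -0.34 on 10 arrays). The 6 core subunits of complex I, which carry the flavin, the iron-sulphur clusters and the electron path, were all lower in SNP, with a median of -0.70, and all 6 were lower on 10 arrays, with a median of -0.43. Ndufs8, a core subunit with iron-sulphur clusters, read 8.62, 8.64 and 8.52 in WT, 7.47, 8.05 and 8.497 in KO, 8.38, 8.38 and 8.41 in wtKI and 7.30, 8.16 and 7.49 in SNP. WT and wtKI were tight, while KO and SNP spread widely and KO 1 and SNP 1 were the lowest of all arrays. SNP minus WT was -0.94 ± 0.28 (SE; limma adjusted p = 0.272) and KO minus WT -0.59 ± 0.28 (1.00), and on 10 arrays -0.77 and -0.32. Ndufs7, which binds the last iron-sulphur cluster of the chain, differed by -0.95 ± 0.31 (0.275; -0.70 on 10 arrays). Ndufv1, the NADH-binding subunit, differed by -0.997 ± 0.43 (0.325; -0.74), with SNP 2 at 8.73 among the WT values of 8.72 to 9.32. Ndufs3, Ndufs1 and Ndufv2 differed by -0.46, -0.37 and -0.20, and on 10 arrays by -0.17, -0.14 and -0.15. Ndufs7, Ndufv1, Ndufs3, Ndufv2 and some genes below were named after their values were seen.

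The 28 accessory subunits of complex I were lower in SNP than in WT in 23 cases, with a median of -0.30 (21 of 28 and -0.16 on 10 arrays). Ndufa10 read 10.67, 10.35 and 10.44 in WT, 9.86, 10.35 and 10.48 in KO, 10.17, 10.41 and 10.09 in wtKI and 9.54, 9.98 and 9.79 in SNP. Every SNP array was below every WT array, and the difference was -0.72 ± 0.22 (SE; limma adjusted p = 0.272), with all 11 probe sets lower. Besides Ndufs5 and Ndufa10, those lower without overlap were Ndufa5, Ndufa8, Ndufa9, Ndufa11, Ndufa12 and Ndufa13, by -0.38 to -0.61 (-0.21 to -0.50 on 10 arrays). The 5 that were higher in SNP were Ndufa7 (0.55 ± 0.26, adjusted p = 0.351), Ndufs4 (0.40 ± 0.18, 0.336), Ndufa6 (0.30; 0.15 on 10 arrays), Ndufa3 (0.20) and Ndufa1 (0.01; -0.05).

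Ndufs4, needed late in the assembly of complex I, had its lowest values in WT. It read 9.75, 9.77 and 9.65 in WT, 10.29, 10.38 and 9.98 in KO, 10.25, 10.05 and 9.98 in wtKI and 10.06, 10.16 and 10.14 in SNP. All 9 other arrays were above all 3 WT arrays, with KO minus WT at 0.49 ± 0.18 (SE; limma adjusted p = 0.930), wtKI minus WT at 0.37 ± 0.18 (1.00) and SNP minus WT at 0.40 ± 0.18. These share the WT arrays. With the probe set of the highest mean the 3 values were 0.06, 0.19 and 0.08, and of the 6 probe sets 5 were higher in SNP than in WT. Ndufa7 read 7.40, 7.59 and 7.82 in WT, 8.23, 7.51 and 7.71 in KO, 7.66, 7.78 and 7.38 in wtKI and 8.38, 7.67 and 8.41 in SNP, where SNP 1 and SNP 3 were the highest of all arrays and SNP 2 was among the WT values. Ndufb11 had the narrowest range of complex I, 0.39, between 10.25 and 10.64 over the 12 arrays.

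Complex II, succinate dehydrogenase, also works in the tricarboxylic acid cycle. Its 4 genes were all lower in SNP than in WT and in wtKI, with medians of -0.37 for both (-0.34 and -0.36 on 10 arrays). Sdha, the flavoprotein, read 9.25, 8.67 and 9.49 in WT, 9.32, 9.12 and 9.12 in KO, 9.36, 9.22 and 8.79 in wtKI and 8.55, 9.31 and 8.83 in SNP. Its groups overlapped throughout and SNP minus WT was -0.24 ± 0.27 (SE; limma adjusted p = 0.666; -0.07 on 10 arrays), although all 15 probe sets were lower.

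Sdhb, the iron-sulphur subunit, read 9.47, 9.49 and 9.62 in WT, 7.77, 9.35 and 9.66 in KO, 9.26, 9.50 and 9.34 in wtKI and 9.06, 9.11 and 8.68 in SNP. KO 1 was far below all other arrays, which gave this gene the widest range of the complex, 1.88. The SNP arrays were below all WT arrays, by -0.58 ± 0.39 (SE; limma adjusted p = 0.468; -0.63 on 10 arrays).

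Sdhc and Sdhd anchor the enzyme in the membrane. Sdhc read 9.003, 8.95 and 9.24 in WT, 9.47, 9.50 and 9.57 in KO, 9.25, 9.35 and 8.82 in wtKI and 8.39, 9.03 and 8.61 in SNP, with the 3 KO arrays above all others. KO minus WT was 0.45 ± 0.22 (SE; limma adjusted p = 1.00), SNP minus KO -0.83 ± 0.22 (0.269) and SNP minus WT -0.39 ± 0.22 (0.402; -0.24 on 10 arrays). The direction of KO minus WT depended on how the 6 probe sets were joined: with the probe set of the highest mean it was -0.15. Sdhd read 6.88, 6.37 and 6.51 in WT, 6.26, 6.53 and 6.55 in KO, 6.45, 6.93 and 6.30 in wtKI and 6.41, 5.84 and 6.46 in SNP, with overlap between all groups and SNP minus WT at -0.35 ± 0.25 (0.483).

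All 7 genes of complex III were lower in SNP than in WT, with a median of -0.22, but 5 of 7 on 10 arrays, with -0.16. Beside Uqcrc1, its partner core subunit Uqcrc2 read 9.73, 9.68 and 9.71 in WT, 8.96, 9.59 and 9.50 in KO, 9.52, 9.57 and 9.48 in wtKI and 9.56, 9.54 and 9.34 in SNP. The WT arrays were above all others, with KO minus WT at -0.36 ± 0.20 (SE; limma adjusted p = 1.00), which was -0.16 on 10 arrays, and SNP minus WT at -0.22 ± 0.20 (0.574). Uqcrfs1, the Rieske iron-sulphur protein, had the narrowest range of the complex, 0.47, and SNP was lower without overlap by -0.19. Uqcrb, a small subunit near the coenzyme Q site, had the widest range, 2.22, from 7.07 on wtKI 3 to 9.29 on KO 1, and it rests on 1 probe set. KO minus wtKI was 0.88 ± 0.36 for Uqcrb (1.00), and 0.57 on 10 arrays.

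Complex IV, cytochrome c oxidase, gave the smallest median difference between SNP and WT, -0.05, with 11 of 17 genes lower (-0.02 and 9 of 17 on 10 arrays). The WT means of its genes ran from 6.54 for Cox8c to 11.94 for Cox6b1, and the part of the signal level in the small difference was not tested. Cox8a, the common form of a small membrane subunit, had the largest difference of the 12 forms common to most tissues. It read 9.25, 9.05 and 8.87 in WT, 8.28, 8.67 and 8.96 in KO, 8.28, 8.89 and 8.56 in wtKI and 7.81, 8.43 and 7.83 in SNP. Between SNP and WT the difference was -1.03 ± 0.26 (SE; limma adjusted p = 0.252; -0.92 on 10 arrays), with 3 of 4 probe sets lower, but the highest SNP array, 8.43, was above the lowest KO and wtKI arrays. Besides Cox8a, Cox6b1 and Cox6b2 were lower without overlap.

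Cox6b1 and Cox6b2 are the common and the testis forms of 1 subunit. Cox6b1 lay between 11.84 and 11.97 on all 12 arrays, the narrowest range of any member, 0.14. Its SNP minus WT was -0.08 ± 0.16 (SE; limma adjusted p = 0.812). Cox6b2 had the widest range, 2.78. It read 8.62, 8.67 and 9.01 in WT, 7.97, 7.82 and 8.68 in KO, 8.94, 8.85 and 8.73 in wtKI and 6.23, 8.22 and 8.26 in SNP. SNP 1 at 6.23 was far below the rest, and SNP minus wtKI was -1.27 ± 0.46 (0.555) with it and -0.60 without KO 1 and SNP 1. KO minus wtKI was -0.68 ± 0.46 (1.00; -0.59 on 10 arrays).

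The other isoform families of complex IV differed less. Cox4i1, the common form, had SNP minus WT at -0.10 ± 0.17 and Cox4i2, the lung and hypoxia form, at -0.04 ± 0.20. Cox6a1, the liver-type form, read 10.58, 10.11 and 10.40 in WT, 10.53, 10.20 and 10.27 in KO, 9.83, 10.12 and 9.84 in wtKI and 9.71, 9.71 and 10.16 in SNP, with the KO arrays above all knock-in arrays and WT overlapping with both knock-ins. Its wtKI minus WT was -0.44 ± 0.21 (SE; limma adjusted p = 1.00), SNP minus WT -0.50 ± 0.21 (0.317) and KO minus wtKI 0.40 ± 0.21 (1.00). With the probe set of the highest mean these were -0.20, -0.10 and 0.13. Cox6a2, the heart and muscle form, was higher in SNP than in KO without overlap, by 0.28 ± 0.19 (0.570). Cox7a2 was at -0.43 ± 0.25 (-0.18 on 10 arrays) and the related Cox7a2l, which takes part in joining complexes into supercomplexes, at 0.09 ± 0.17 (0.04) in SNP minus WT. The testis-type forms Cox8c and Cox7b2, the latter on 1 probe set, were at -0.16 ± 0.21 and 0.56 ± 0.28. For Cox7b2, SNP 2 and SNP 3 were the 2 highest of all arrays, at 7.29 and 7.71, and SNP 1 at 6.92 was among the rest. On 10 arrays Cox7b2 was 0.65 higher in SNP than in wtKI and 0.76 higher than in KO, both without overlap and neither past the threshold (0.594 and 0.330).

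Ndufa4, long counted with complex I, was higher on 5 of the 6 human knock-in arrays than on any WT or KO array. It read 10.07, 9.98 and 9.90 in WT, 9.83, 10.06 and 9.98 in KO, 10.28, 10.34 and 10.29 in wtKI and 9.93, 10.29 and 10.33 in SNP. The exception was SNP 1. The differences were 0.32 ± 0.18 for wtKI minus WT (SE; limma adjusted p = 1.00), -0.35 ± 0.18 for KO minus wtKI (1.00) and 0.20 ± 0.18 for SNP minus WT (0.581; 0.33 on 10 arrays). All 5 probe sets were higher in SNP than in WT.

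In complex V 12 of 15 genes were lower in SNP than in WT, with a median of -0.25, but 8 of 15 on 10 arrays, with -0.03. Of the 5 genes of the F1 head, which holds the catalytic sites, 4 were lower, with a median of -0.40 (-0.29 on 10 arrays). Atp5b, the catalytic beta subunit, read 11.19, 11.14 and 11.27 in WT, 11.11, 11.20 and 11.15 in KO, 11.21, 11.20 and 10.98 in wtKI and 10.64, 11.04 and 10.73 in SNP. The difference SNP minus WT was -0.40 ± 0.18 (SE; limma adjusted p = 0.332), without overlap, and all 10 probe sets were lower. Its partner Atp5a1, the alpha subunit, was at -0.46 ± 0.25 (0.390; -0.29 on 10 arrays) with overlap, and Atp5c1, the central gamma stalk, at -0.06 ± 0.17 (0.867; 0.02).

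The c ring, which turns as protons pass, is built from 1 protein encoded by 3 genes. Atp5g1, Atp5g2 and Atp5g3 were at 0.07 ± 0.18, -0.25 ± 0.22 and -0.42 ± 0.37 in SNP minus WT (SE; limma adjusted p = 0.861, 0.580 and 0.576). Atp5g1 rests on 1 probe set. Of the 7 probe sets of Atp5g2, 2 had the same mean in each genotype, and these equal the means of the gene. All 7 were lower in SNP than in WT. Atp5g3 read 10.02, 9.64 and 9.93 in WT, 8.96, 10.04 and 9.90 in KO, 9.51, 9.73 and 9.53 in wtKI and 8.60, 9.62 and 10.11 in SNP, with SNP 1 and KO 1 below and SNP 3 above all others. On 10 arrays the 3 were at 0.06, -0.07 and 0.002. Among the 7 stalk and membrane genes, Atp5l had the widest range of the complex, 2.10, and all of it lay within SNP, from 7.56 on SNP 1 to 9.66 on SNP 3. Atp5j2 had the narrowest, 0.22.

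**Figure D4:**
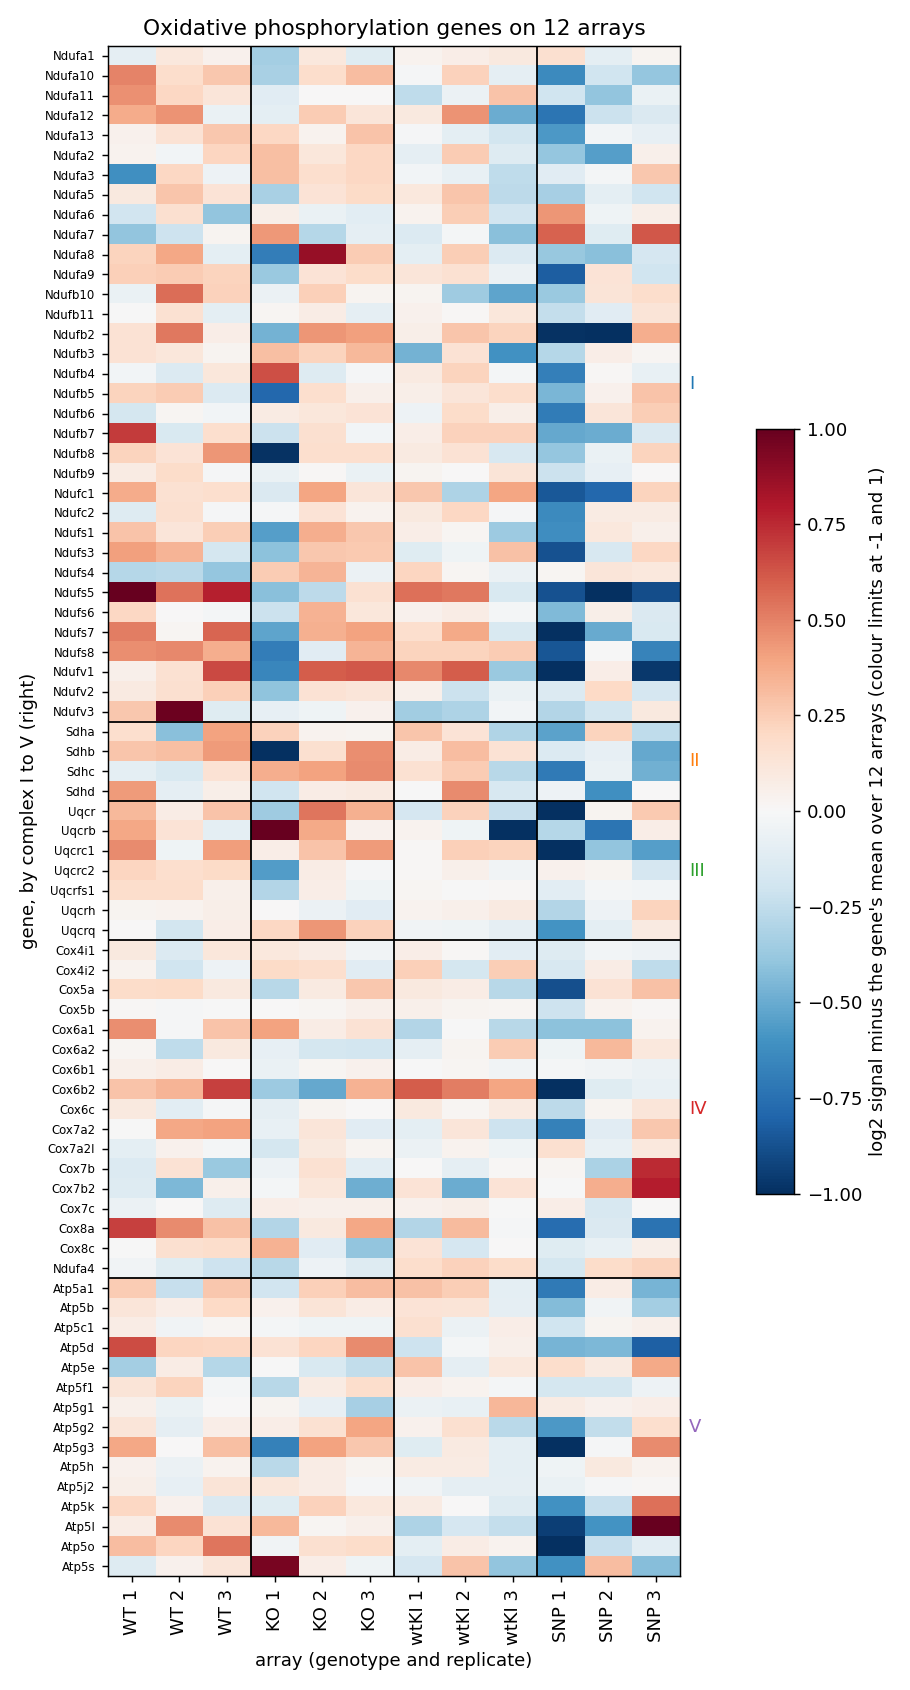
Log2 signal of each of the 77 genes (rows, grouped by complex I to V) minus its mean over the 12 arrays (columns, by genotype and replicate), with colours limited at -1 and 1. SNP 1 is blue in most rows, with 67 genes below their own mean, against 48 or 49 on KO 1, SNP 2 and wtKI 3, and rows of complex IV are paler than those of complex I.

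The variant was compared with the common human form in SNP minus wtKI. Of 77 members 60 were lower and 17 higher, with a median of -0.15, against -0.02 for all genes. With limma, 8 members were lower and 0 higher at an unadjusted p under 0.05, against 8.89% of all genes in both directions. The groups did not overlap in 14 members that were lower (18.2%), against 7.09% of all genes, and in 0 that were higher, against 7.07%. Without KO 1 and SNP 1 the median was -0.02, with 44 lower, and 15 members (19.5%) were lower without overlap, against 11.3%. Leaving out SNP 1 alone also gave -0.02. Beside Ndufs5, Uqcrc1 and Cox6b2, the members with the smallest p that were higher were Ndufa7 (0.55 ± 0.26, SE; limma adjusted p = 0.561), Cox7b2 (0.46 ± 0.28, 0.594) and Ndufb3 (0.24 ± 0.22, 0.705). For Ndufb3, a membrane subunit of complex I, the plain mean of the probe sets gave -0.08.

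KO minus WT, the knock-out against the wild type, had a median of -0.06 over the members, against -0.02 for all genes, with 49 lower and 28 higher. On 10 arrays the median was -0.01, with 40 lower. An unadjusted limma p under 0.05 was reached by 1 lower member, Ndufs5, and 1 higher, Ndufs4, against 4.8% of all genes. Without overlap 7 were lower (9.09%), against 5.76% of all genes, and 6 higher (7.79%), against 5.63%. Those higher were Ndufs4, Sdhc, Uqcrq, Ndufb3, Ndufb6 and Cox7c, by 0.12 to 0.49. Ndufa3, a small membrane subunit of complex I, was at 0.38 ± 0.23 with overlap (SE; limma adjusted p = 1.00). The 6 core genes of complex I were all lower, with a median of -0.20, but without KO 1 and SNP 1 only 2 of 6 were, with a median of 0.04.

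The common human knock-in differed from WT by a median of -0.06, against -0.01 for all genes, with 50 members lower and 27 higher. At an unadjusted p under 0.05 there were 2 lower and 0 higher (limma), against 3.27% of all genes. Without overlap 10 were lower (12.99%), against 6.49%, and 3 higher (3.90%), against 5.61%. The lower members with the smallest p all overlapped with WT: Ndufv3 at -0.61 ± 0.26 and Ndufb10 at -0.53 ± 0.24, both accessory subunits of complex I, and Cox6a1 (SE; limma adjusted p = 1.00 for each). With the probe set of the highest mean, Ndufv3, Ndufb10 and Cox6a1 were at -0.42, -0.06 and -0.20. For Ndufv3 the WT arrays themselves spread from 8.06 to 9.16. Beside Ndufs4 and Ndufa4, the higher one was Atp5e at 0.29 ± 0.19.

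Between the variant and the knock-out, SNP minus KO, 58 members were lower and 19 higher, with a median of -0.19, against 0.01 for all genes. Without KO 1 and SNP 1 the median was -0.10, with 56 lower, and without SNP 1 alone it was -0.04. The unadjusted limma p was under 0.05 in 10 lower and 0 higher members, against 11.3% of all genes. Without overlap 12 were lower (15.6%), against 7.04%, and 3 higher (3.90%), against 6.55%. On 10 arrays, with 2 against 2, 31 were lower without overlap (40.3%), against 24.1%. The 3 higher were Atp5e (0.35 ± 0.19, SE; limma adjusted p = 0.499), Cox6a2 and Atp5g1 (0.19), and Cox7b2 was at 0.52 ± 0.28 with overlap (0.487).

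KO minus wtKI was the comparison with members nearest to balance, 41 higher and 36 lower, with a median of 0.01, against -0.02 for all genes. At an unadjusted p under 0.05 there were 2 higher, Ndufb3 (0.59 ± 0.22) and Uqcrb, and 0 lower (limma, adjusted p = 1.00 for both), against 4.58% of all genes. For Ndufb3 all 3 probe sets were higher in KO, but the probe set of the highest mean gave only 0.06. Without overlap 10 were higher (12.99%), against 5.37%, and 3 lower (3.90%), against 5.13%. On 10 arrays the median was 0.09, with 52 higher and 25 lower. Ndufs5 was at -0.48 ± 0.26 with overlap.

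Genes of 7 neighbouring pathways were set beside the members. None passed in either direction in any comparison (limma), and most were lower in SNP than in WT, where the median of all genes was -0.01. All 16 tricarboxylic acid cycle and pyruvate dehydrogenase genes measured were lower, with a median of -0.51 (-0.29 on 10 arrays). Pdha1, a subunit of pyruvate dehydrogenase, was at -0.81 ± 0.28 (SE; limma adjusted p = 0.285). Of 29 assembly factors 27 were lower, with a median of -0.52 (-0.23), led by Cox19 at -0.90 ± 0.25 (0.272), while Surf1 was at 0.08 ± 0.34 (-0.14 on 10 arrays). Of 25 carriers and import genes 23 were lower, with -0.56 (-0.24). Slc25a11, the oxoglutarate carrier, was at -1.04 ± 0.22 (0.218), and the chaperone gene Hspe1 at 0.32 ± 0.22.

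Of 18 genes of cytochrome c and coenzyme Q synthesis 14 were lower in SNP than in WT, with -0.44 (-0.12), Coq7 at -1.09 ± 0.37 and Adck4 at 0.41 ± 0.30 (SE; limma adjusted p = 0.280 and 0.497; -0.83 and 0.70 on 10 arrays). Of 73 mitochondrial ribosome genes 60 were lower, with -0.51 (-0.25), Mrpl18 at -1.08 ± 0.30 and Mrps24 at 0.48 ± 0.31 (0.272 and 0.446; -0.69 and 0.29 on 10 arrays). Glycolysis genes were lower in 14 of 20, with -0.30 (-0.20), Aldoa at -0.80 ± 0.23 and the lactate exporter Slc16a3 at 0.65 ± 0.47 (0.272 and 0.497; -0.88 and 0.09 on 10 arrays). Of 17 regulators of mitochondrial biogenesis 12 were lower, with -0.18 (-0.03). The unadjusted limma p was under 0.05 in 5 lower genes of the tricarboxylic acid cycle, 4 assembly factors, 9 carrier and import genes, 3 of cytochrome c and coenzyme Q, 19 of the ribosome, 4 of glycolysis and 0 regulators, and in 1 higher gene, Ppargc1a, against 8.31% of all genes lower and 6.38% higher. Among the regulators Pprc1 was at -0.49 ± 0.23 (0.350) and Ppargc1a, the coactivator PGC-1 alpha, at 0.81 ± 0.34 (0.315; 0.43 on 10 arrays). Ppargc1a lay under the lowest 5% of genes on every WT array and on SNP 2 and SNP 3.

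SNP 1 was the lowest SNP array here too: the tricarboxylic acid cycle list had medians of -1.09, -0.11 and -0.42 from the WT mean on SNP 1, SNP 2 and SNP 3, and the assembly factors -0.92, -0.37 and -0.19. In KO minus WT the medians of the same lists were below 0 on 12 arrays and above 0 on 10. Their medians on 12 arrays were -0.10 for the tricarboxylic acid cycle, -0.08 for assembly factors, -0.03 for carriers and import, -0.13 for cytochrome c and coenzyme Q, -0.05 for the mitochondrial ribosome, -0.02 for glycolysis and -0.06 for regulators. On 10 arrays all 7 were above 0, from 0.02 to 0.18. Ppargc1a was at 0.85 ± 0.34 without overlap (SE; limma adjusted p = 0.988). It was dim, at 5.09, 5.001 and 4.83 in WT, where the lowest 5% of genes ended at 5.69, 5.63 and 5.72. In KO it read 5.86, 5.86 and 5.76, above ends of 5.47, 5.74 and 5.67.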

How the data were processed

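The array signals were deposited on the log2 scale after RMA (per the submitters' processing notes, which name no version). Of 105661 probe sets, the platform annotation gives 98975 exactly 1 gene symbol, and only these were used. Each gene's value was the median of its probe sets on an array, for 14201 genes; all 77 members were found by gene in a RefSeq table of GRCm38.p6, and 3 have newer symbols. Genotypes were compared on all 12 arrays by lmFit and eBayes of limma 3.58.1 (R 4.3.3), and p-values were adjusted by Benjamini-Hochberg over the 14201 genes, with a threshold of 0.05; errors beside differences are standard errors. Only the limma step was tested on simulated data, which held no arrays that stand apart like KO 1 and SNP 1. For arrays, their number limits the precision.

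The members and lists were chosen with earlier results of these data known. Lists covered the tricarboxylic acid cycle, assembly factors, carriers and import, cytochrome c and coenzyme Q synthesis, the mitochondrial ribosome, regulators of biogenesis, glycolysis, and markers of GMPs and of 6 other cell types. Genes named were the 3 higher and 3 lower members with the smallest p in each comparison, the widest and narrowest range per complex, isoform families, the Sdh genes and, per list, 1 gene in each direction; others were named after their values were seen. Alternatives were other ways of joining probe sets, median centring, repeated quantile normalization, filters on dim genes and probe sets, array weights, sex as a term, blocks of replicate numbers, a robust prior with a variance trend, fits of 2 genotypes only, and arrays left out. Arrays of the same replicate number deviated together from their group means between KO and SNP (correlations over all genes 0.341, 0.191 and 0.139 for numbers 1 to 3), which the data and not the labels show. Deviations within a group cancel out, so these correlations are not independent of each other. KO 1 and SNP 1, which stood apart, enter all of them through the group means. Between the other genotypes the correlations ran from -0.172 to 0.0905. Probe sets shared by several symbols were left out, so Atp5j, which has no others, was not analysed here.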

Additional observations from a re-analysis of the deposited data

How the results depend on the processing

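Each result was recomputed under 25 alternative settings (24 for the F test). Of 324 alternative values of the 13 counts and medians, 314 stayed within the spread between arrays (medians, SD 0.124) or within 1.5 times (counts), and 10 did not. Part of this was fixed in advance. A median difference cannot change with the block, with the robust prior and variance trend, or with a fit of the compared genotypes alone. Nor can it change when an array of another genotype is left out. The SD of 0.124 was taken with SNP 1 included. It is larger in size than the medians of KO minus WT (-0.061), wtKI minus WT (-0.062) and KO minus wtKI (0.006). A change of sign in these medians could therefore still count as within the spread. With array weights, 1 member passed in KO minus WT, in SNP minus WT and in the F test, each time Ndufs5 (limma adjusted p = 0.0279, 0.0376 and 0.0172); over all genes 140, 5 and 156 passed. A repeated quantile normalization gave 1 in SNP minus WT, again Ndufs5 (0.0475), among 5 genes. The median of SNP minus wtKI moved from -0.145 to -0.0192 on 10 arrays. The median of SNP minus WT moved from -0.249 to -0.119 with the probe set of the highest mean and to -0.107 on 10 arrays.

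Leaving out 1 array at a time gave medians from -0.094 to -0.006 in KO minus WT, -0.234 to -0.0192 in SNP minus wtKI, -0.102 to -0.027 in wtKI minus WT, -0.354 to -0.107 in SNP minus WT, -0.286 to -0.0419 in SNP minus KO and -0.053 to 0.085 in KO minus wtKI, and 0 members past the threshold throughout. The value nearest 0 came without SNP 1 in the 3 comparisons of SNP, and the cause was not tested. The medians of KO minus WT and KO minus wtKI, both near 0, changed sign under 1 and 6 alternatives. Of 900 alternative values of the 36 gene differences named by rule, 895 kept direction and side of the threshold. Under the settings that cannot change a difference, the direction was fixed in advance. The 3 that passed were those of Ndufs5 in single comparisons, and 2 turned: Sdhc in KO minus WT (-0.151, probe set of the highest mean) and Ndufb3 in SNP minus wtKI (-0.0829, plain mean).

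With the replicate number as a block, 0 members passed in any comparison, and the limma adjusted p of Ndufs5 in SNP minus WT was 0.163. The medians (-0.249 in SNP minus WT, -0.19 in SNP minus KO) cannot change with this block, because every genotype has each number once. Arrays of the same number deviated together between KO and SNP alone, by correlations that are not independent of each other. In SNP minus KO the block left 0 of the 2 genes called over all genes. It changed no call of a member. Only 3 of the 12 arrays correlated best, among the other genotypes, with an array of their own number. No member was under the lowest 5% of genes on any array.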
